A study of Mus musculus with 15 samples.

Results

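The T cell receptor (TCR) β rearrangements found both in the tumor-draining lymph node (TdLN) and in tumor 1 of the same mouse were examined in 5 untreated mice. Members were chosen by presence: a nucleotide rearrangement listed as productive (in frame, no stop codon) had to have at least 1 template in both samples of a mouse. There were 427 of them, 112, 104, 90, 42 and 79 in mice 1 to 5. They stand against 996 productive rearrangements of tumor 1 that were not found in the TdLN and 15285 of the TdLN that were not found in tumor 1. Across all samples 29992 rearrangements were listed, of which 18625 were productive. The 427 members carry 421 distinct nucleotide sequences, since 5 sequences were members in more than 1 mouse. They were selected on template counts of the TdLN and tumor 1, so counts, shares and ranks in these tissues are given below as a description, without a test.

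All mice were untreated female C57BL/6 controls that carried B16F10GP tumors on both flanks. B16F10GP is a mouse melanoma line that was given the glycoprotein of lymphocytic choriomeningitis virus (LCMV) by lentivirus and sorted as a stable line. Tumor 1 is the right tumor, implanted first, tumor 2 is the left tumor, implanted later, and the TdLN drains tumor 1. CD8+ PD-1+ T cells were sorted from each tissue, with a CD44+ gate that the paper states for the tumors. Their genomic DNA was read with the immunoSEQ assay, a multiplex PCR across the joined gene segments. A template is the assay's estimate of a genome that carries a rearrangement. The assay reads no marker genes, so the sort labels could not be checked here. Each TdLN had 3254 to 9105 productive templates, with a median of 3940. Tumor 1 had 3601 to 6137, with a median of 4201, and for tumor 2 the range was 238 to 3975 and the median 3364 (n = 5 each). Sample names of mice 1 to 3 are written "CON" and those of mice 4 and 5 "Con". Intervals of single shares are 95% Wilson intervals and cover counting error only.

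A TCR β chain is made in the thymus by joining 1 V, 1 D and 1 J segment, with bases trimmed from the segment ends and non-templated N bases added between them. The joint encodes the third complementarity-determining region (CDR3), the part of the chain that lies over the peptide. All daughters of a T cell inherit its rearrangement, so the nucleotide sequence serves as a tag of a clone that can be looked for in other tissues. A lymph node that drains a tumor is a place where T cells can meet its antigens before they enter the tumor. PD-1 and CD44 are carried by CD8+ T cells that have met antigen.

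Before the comparisons, 1 feature of the samples needs to be known. Of the 427 members, 118 were also found in a sample of another mouse, namely 38, 57, 6, 13 and 4 in mice 1 to 5. These were not spread evenly. Of the 112 members of mouse 1, 34 were in tumor 2 of mouse 2, where they had 522 templates, 298 of them from 1 rearrangement. Of the 104 members of mouse 2, 54 were in tumor 2 of mouse 1 with 785 templates, the largest having 422. Of the 42 members of mouse 4, 11 were in tumor 1 of mouse 5 with 77 templates. In mouse 3 these 6 members and in mouse 5 these 4 were 6.67% (interval 3.09% to 13.8%) and 5.06% (1.99% to 12.3%), against 54.8% (45.2% to 64%) in mouse 2. Labels or DNA exchanged between samples of different mice cannot be told apart here from a rearrangement made separately in each, and either would bear on presence in tumor 2 and on sharing within a mouse. Their part in the results was not tested, and the main results are also given for the 309 members (74, 47, 84, 29 and 75 in mice 1 to 5) found in no sample of another number. The 118 removed members held 90.4%, 83.6%, 62.6%, 28.6% and 0.53% of the productive tumor 1 templates of mice 1 to 5. In mouse 3 nearly all of this was 1 rearrangement, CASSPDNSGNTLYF with 62.3%, and the members kept held 27.1% there.

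The largest member of tumor 1 in every mouse is shown here, as its sequence is the tag by which the clone was found in both tissues. Those of mice 1 to 4 were also found in samples of other mice, with 306, 90, 94 and 31 templates there. That of mouse 5 was not. Each is an 87-base rearrangement of the files, 5′ to 3′. Capitals mark the bases between the parts assigned to the V and the J segment, which hold the D segment and any N bases.
Mouse 1, GSYEQYF (Trbv16, Trbj2-7): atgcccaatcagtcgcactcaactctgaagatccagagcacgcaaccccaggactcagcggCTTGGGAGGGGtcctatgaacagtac
Mouse 2, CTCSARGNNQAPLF (Trbv1, Trbj1-5): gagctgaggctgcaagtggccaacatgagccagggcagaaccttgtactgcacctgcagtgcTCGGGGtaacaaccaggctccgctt
Mouse 3, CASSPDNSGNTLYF (Trbv12-1, Trbj1-3): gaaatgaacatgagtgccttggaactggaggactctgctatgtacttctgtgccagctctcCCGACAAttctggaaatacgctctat
Mouse 4, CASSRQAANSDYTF (Trbv13-1, Trbj1-2): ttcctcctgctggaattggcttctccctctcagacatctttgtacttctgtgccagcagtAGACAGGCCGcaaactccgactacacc
Mouse 5, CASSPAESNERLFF (Trbv2, Trbj1-4): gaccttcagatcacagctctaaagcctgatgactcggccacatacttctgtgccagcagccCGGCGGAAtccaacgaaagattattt

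Every lower-case V part lies in exon 2 of its V gene on the plus strand of GRCm38, the build that the submitters' processing notes call mm10. They are chr6:41152145-41152205 (Trbv16), chr6:40891821-40891882 (Trbv1), chr6:41114005-41114065 (Trbv12-1), chr6:41116405-41116464 (Trbv13-1) and chr6:41047931-41047991 (Trbv2). The J parts lie at chr6:41543811-41543825, chr6:41535084-41535102, chr6:41534323-41534341, chr6:41534001-41534017 and chr6:41534813-41534830. These clones use 5 different V genes and 5 different J genes. The member of mouse 1 stands apart in that 25 bases were trimmed from its V segment, so that its listed CDR3 lacks the opening cysteine. Only 4 of the 427 members lack it, 3 of them in mouse 1 and 1 in mouse 5.

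The largest members differed widely in how they were divided between the tissues. In mouse 1, GSYEQYF accounted for 2948 of 6137 productive tumor 1 templates, or 48.0% (46.8% to 49.3%), and 409 of 3779 in the TdLN, or 10.8% (9.87% to 11.9%). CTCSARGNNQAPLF of mouse 2 had 1158 in tumor 1, 27.6% (26.2% to 28.9%), and 113 in the TdLN, 3.47% (2.90% to 4.16%). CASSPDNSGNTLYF of mouse 3 held 62.3% of tumor 1 (60.8% to 63.8%), the largest share of any member, but 2.69% of the TdLN (2.23% to 3.24%). In these 3 mice the top clone of the tumor was thus also a large clone of the node. Each of these clones was also found in samples of other mice, with the limit given above. In mouse 4, tumor 1 held 538 templates of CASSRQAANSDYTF, 10.1% (9.36% to 11.0%), whereas its TdLN held 9, 0.103% (0.0543% to 0.196%). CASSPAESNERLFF of mouse 5 had 281 in tumor 1, 7.80% (6.97% to 8.73%), and 26 in the TdLN, 0.286% (0.195% to 0.418%).

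Other members were larger in the node. In mouse 3, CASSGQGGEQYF (Trbv5, Trbj2-7) had 191 templates in the TdLN, 4.85%, and 49 in tumor 1, 1.23%. In mouse 5, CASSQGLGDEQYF (Trbv5, Trbj2-7) had 26 TdLN templates against 2 in tumor 1. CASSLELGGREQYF (Trbv16, Trbj2-7) of mouse 2 had 37 against 12. At the other end, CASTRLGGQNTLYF (Trbv19, Trbj2-4) of mouse 4 had 335 templates in tumor 1, 6.31%, and 1 in the TdLN, 0.0115% (0.00202% to 0.0649%), so its sharing rests on a single template.

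Shared clones were larger than unshared ones in both tissues, as a selection on presence in both favours. The median member had 2, 5, 3, 2.5 and 4 templates in tumor 1 of mice 1 to 5 and 2, 2, 3.5, 1.5 and 2 in the TdLN, where the median unshared rearrangement had 1 in every sample. The median rank of a member in tumor 1 was 72, 69, 60, 83.5 and 79. In the TdLN it was 204, 269, 158, 1316.5 and 805, of 1290 to 5722 rearrangements, and these ranks are not comparable between lists of such different length. Members took 38 of the 50 top 10 places of the tumors (9, 10, 7, 4 and 8 per mouse) and 33 of the 50 of the nodes (9, 9, 8, 2 and 5). Of the members, 18 were in the top 10 of both tissues, 6, 4, 5, 1 and 2 in mice 1 to 5. At the small end, 63 members had a single template in both tissues and 240 had at least 2 in both.

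The share of rearrangements found in the other tissue was mostly higher at higher template counts, though not at every step in each mouse. In tumor 1 it was 15.5% of 695 rearrangements with 1 template, 48.0% of 125 with 4 to 7 and 73.7% of 38 with 64 or more, pooled over mice. At 64 or more it was 100% in each of mice 1 to 3, 38.5% in mouse 4 and 80% in mouse 5. In the TdLN it was 1.41% of 10062 with 1 template, 11.5% of 582 with 4 to 7, 57.1% of 42 with 16 to 31 and 90.9% of 11 with 64 or more. These pooled TdLN values hold different mice, as mice 4 and 5 had 3765 and 3763 rearrangements with 1 template and 0 with 64 or more. With 1 TdLN template the share was 4.23%, 3.48%, 2.77%, 0.558% and 0.824% in mice 1 to 5. With 64 or more it was 100%, 100% and 75% in mice 1 to 3. A clone with few templates can be missed in a sample of limited depth, so shared and unshared rearrangements are compared below at equal template count, which may not stand for equal clone size across J genes.

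**Figure D1:**
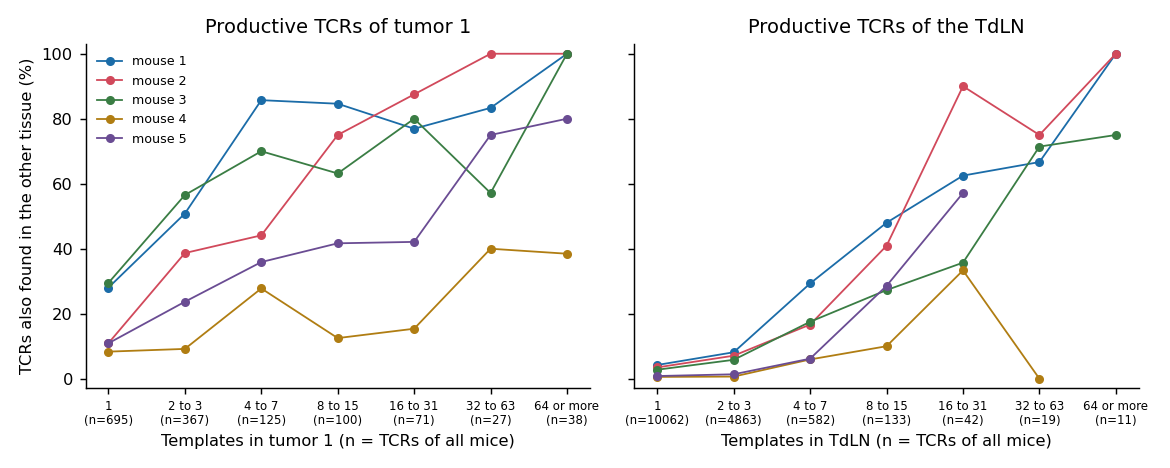
Percentage of productive rearrangements also found in the other tissue of the mouse, against the template count in tumor 1 (left) or in the TdLN (right), with 1 line per mouse. Pooled over mice the share rises from 15.5% at 1 template to 73.7% at 64 or more in tumor 1, and from 1.41% to 90.9% in the TdLN. No TdLN rearrangement of mice 4 and 5 had 64 or more templates, and in tumor 1 of mouse 4 the share there was 38.5%.

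The boundary of the selection ran through large clones. Just inside it were members with 1 TdLN template, 36, 36, 18, 21 and 31 in mice 1 to 5, the largest of which had 25, 26, 19, 335 and 21 templates in tumor 1. Just outside it, the largest tumor 1 rearrangements not found in the TdLN had 44, 28, 61, 515 and 679 templates. The last of these was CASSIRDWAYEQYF (Trbv14, Trbj2-7) of mouse 5, and 0 of 9105 TdLN templates allows it a share of up to 0.0329%. The largest TdLN rearrangements not found in tumor 1 had 40, 39, 127, 48 and 27 templates, among them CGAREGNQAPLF (Trbv20) with 48 in mouse 4. Clones of 27 or more templates were thus not found in the other tissue in all 5 mice, and those of the tumor were largest in mice 4 and 5.

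Template counts of members in the TdLN and in tumor 1 were related within each mouse. Spearman's rho was 0.603 over 112 members in mouse 1, 0.460 over 104, 0.579 over 90, 0.251 over 42 and 0.596 over 79 in mice 2 to 5, as a description, since the members of a mouse share their libraries and depth. Among the 309 members found in no other mouse it was 0.354, 0.217, 0.570, 0.139 and 0.622. The median member had a larger share of the TdLN than of tumor 1 in mouse 1 (log2 of tumor 1 over TdLN share -0.70) and about equal shares in mouse 3 (-0.01). It was larger in tumor 1 in mice 2, 4 and 5 (0.63, 1.01 and 2.34). The mean of these medians was 0.65 ± 1.14 (SD, n = 5), and single members ranged from -5.23 to 9.11. The share was larger in the TdLN for 73, 34, 63, 6 and 2 members, and larger in tumor 1 for 39, 70, 27, 36 and 77. Shares depend on the totals, 6137 tumor 1 and 3779 TdLN templates in mouse 1 but 3601 and 9105 in mouse 5. A member with 1 template in both thus has the larger share in the TdLN of mouse 1 and in tumor 1 of mouse 5. The medians of -0.70 in mouse 1 and -0.01 in mouse 3 are those of equal template counts in both samples. What part of the differences between mice follows depth was not tested.

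**Figure D2:**
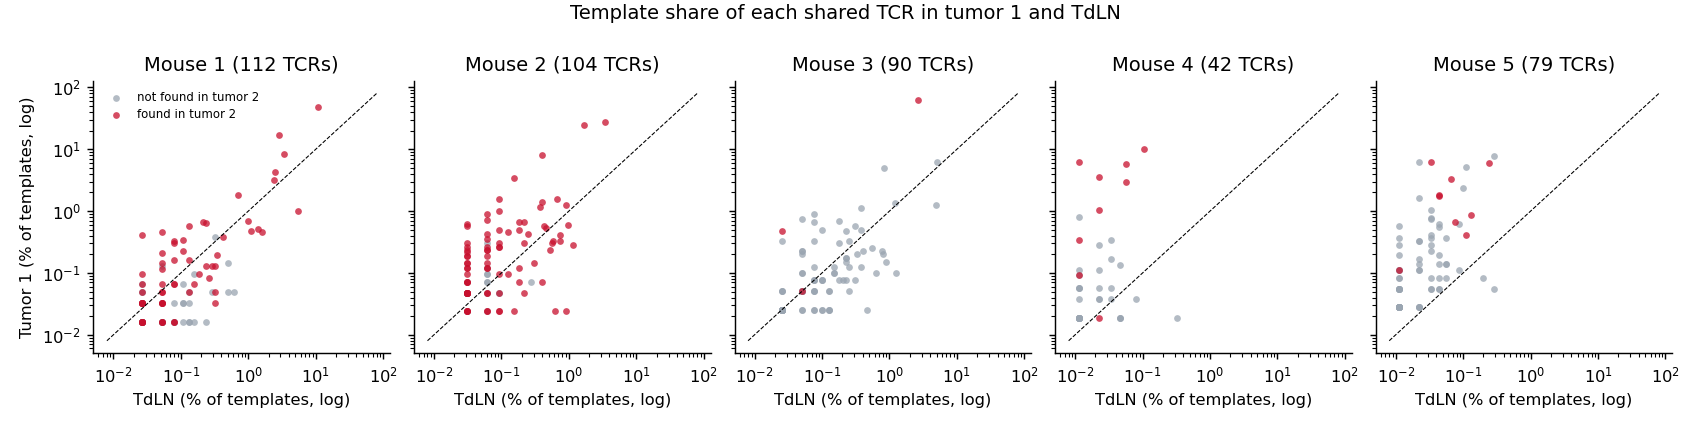
Share of productive templates in the TdLN (x axis, %) and in tumor 1 (y axis, %) of each member, on log axes, with 1 panel per mouse. The dashed line marks equal shares, and red points were also found in tumor 2. Members of mouse 5 lie mostly above the line (77 of 79), whereas 73 of 112 members of mouse 1 lie below it. The template totals on which shares depend also differed between these mice.

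At equal template count, members and unshared TCRs used J segments at different frequencies. J segments encode the end of the CDR3 and the start of the framework that follows it. For each mouse the unshared rearrangements of tumor 1 were weighted to the tumor 1 template counts of the members, and in the same way those of the TdLN to the TdLN counts. This compared 314 of the 427 members with 925 unshared rearrangements of tumor 1, and 387 members with 15245 of the TdLN. Members whose count no unshared rearrangement of the mouse had were left out. Every member of mice 1 to 3 with 64 or more tumor 1 templates was among them. The same held on the TdLN side for mice 1 and 2 at 64 or more TdLN templates. The comparisons thus leave out many of the largest members. Against the tumor, 2 of 12 J genes differed (16.7% of those tested, adjusted p under 0.05), and against the TdLN 4 of 12 did (33.3%). All p-values here are from two-sided exact permutation tests of 5 against 5 mouse means, whose smallest p is 0.00794, with Benjamini-Hochberg adjustment. The germline segments of the 4 genes are shown because the comparison turns on them. They are from GRCm38 with GENCODE M21, plus strand, 5′ to 3′, and encode the end of the CDR3 and the framework that follows it.
Trbj2-7, chr6:41543810-41543856: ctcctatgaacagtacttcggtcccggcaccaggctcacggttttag
Trbj2-4, chr6:41543362-41543410: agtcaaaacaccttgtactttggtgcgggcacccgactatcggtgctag
Trbj1-1, chr6:41533864-41533911: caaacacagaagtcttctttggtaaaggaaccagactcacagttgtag
Trbj2-3, chr6:41543223-41543271: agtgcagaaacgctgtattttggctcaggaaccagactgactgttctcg

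Trbj2-7 was the most used J gene of the members, with 93 of 427, and yet was used less than in unshared TCRs of the same count. At equal TdLN count it made up 22.2%, 18%, 17.1%, 11.9% and 23.0% of the members of mice 1 to 5, against 32%, 34.8%, 30.1%, 34.8% and 35.6% of unshared TCRs. The groups did not overlap. The means were 18.4% ± 4.46 and 33.5% ± 2.34, a difference of -15.0 percentage points (SD over 5 mice; exact permutation p = 0.00794, 0.0476 after adjustment). At equal tumor 1 count it made up 19.5%, 15.4%, 15.6%, 8.57% and 20% of the members against 30.6%, 38.0%, 28.6%, 32.9% and 21.6%. Here too the groups did not overlap (15.8% ± 4.57 against 30.3% ± 6.04, SD, n = 5; adjusted exact permutation p = 0.0476). The difference was -13.2 percentage points in mice 1 to 3 and -17.8 in mice 4 and 5 on the TdLN side, and -15.6 and -13.0 on the tumor side.

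Trbj2-4 moved the other way. At equal TdLN count it made up 11.1%, 8.99%, 13.4%, 11.9% and 10.8% of the members against 5.41%, 6.04%, 3.87%, 5.57% and 5.04% of unshared TCRs, a mean difference of 6.06 percentage points. At equal tumor 1 count the means were 11.2% and 6.11%. Trbj1-1, used by 60 members, made up 14.1% of members and 6.05% of unshared TCRs at equal TdLN count, and was higher in 4 of 5 mice, mouse 4 having 7.14% against 7.62%. Trbj2-3 was higher in 5 of 5 mice, at 7.88% against 5.84% on average. Each of these had an adjusted exact permutation p of 0.0476 (n = 5). With the mouse number as a block, where 5 mice cannot go below 0.0625, the smallest adjusted p was 0.375 on the tumor side and 0.25 on the TdLN side (exact sign-flip test). No J gene call held with any 1 mouse left out, where 4 mice against 4 cannot go below 0.0286 before adjustment.

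Template counts themselves differed by J gene, and the J gene differences moved with this. Among TdLN rearrangements not found in tumor 1, 97.6% of those with Trbj1-1 had a single template (86.9% to 99.3% over mice), as did 95.2% with Trbj2-4 and 87.5% with Trbj2-3. With Trbj2-7 it was 25% (19.8% to 30.5%). The mean template count ran from 1.03 for Trbj1-1 to 2.5 for Trbj2-7. Accordingly, Trbj2-7 made up 8.53% of the 9911 unshared TdLN rearrangements with 1 template and 45.9% of the 4726 with 2 or 3. Trbj1-1 went from 14.9% to 0.741% between the same counts and Trbj2-4 from 11.3% to 1.04%. Members changed less between these counts, with Trbj2-7 at 12.7% of those with 1 TdLN template and 18.6% of those with 2 or 3, and Trbj1-1 at 16.2% and 18.6%. At 8 or more TdLN templates, however, Trbj2-7 made up 42.7% of members and 50.4% of unshared TCRs, and Trbj1-1 5.62% and 0%. In tumor 1, Trbj2-7 went from 8.33% of members with 1 template to 35.2% with 8 or more, and from 19.6% to 41.8% of unshared TCRs. Out-of-frame rearrangements, which encode no receptor, showed the same kind of dependence, with Trbj2-7 in 25.6% of the unshared ones at 1 TdLN template and 36.9% at 2 or 3.

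Equal template count may therefore not stand for equal clone size across J genes, which was not tested. Further comparisons bear on the J gene result, of which those at 1 template and of out-of-frame rearrangements were chosen after these values were seen. Among TCRs with 1 TdLN template, Trbj2-7 made up 11.6% of members and 8.52% of unshared TCRs, the opposite direction (adjusted exact permutation p = 0.748). Among those with 1 tumor 1 template it stayed lower in members in 5 of 5 mice, at 8.44% against 19.1% (adjusted exact permutation p = 0.286). With no weighting by count, the members used Trbj2-7 in 20.5% and the unshared TCRs in 27.4% in tumor 1 and 21.8% in the TdLN, as means of 5 mice, and 0 of 12 J genes had an adjusted p under 0.05 on either side and 1 on each had an unadjusted p under 0.05 (exact permutation tests). Among out-of-frame rearrangements, 0 of 12 passed with or without adjustment, and the Trbj2-7 difference was 2.90 percentage points on the tumor side and 7.74 on the TdLN side, both upward. Without rearrangements found in other mice, Trbj2-7 and Trbj1-1 had an adjusted exact permutation p of 0.0476 on both sides and the other 10 J genes did not pass, with Trbj2-7 at 19.7% against 32% on the TdLN side.

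**Figure D3:**
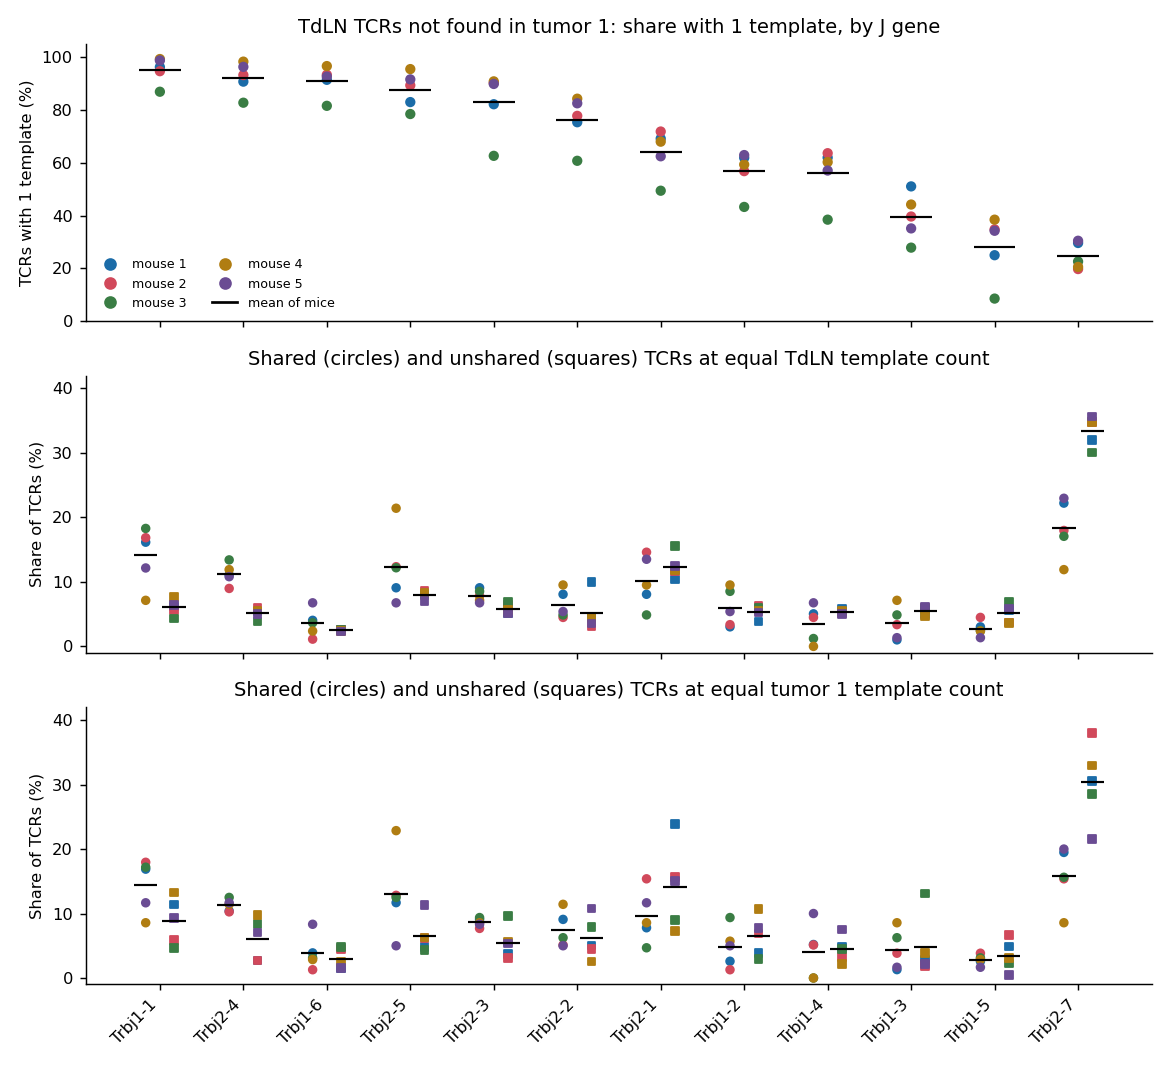
J genes of members and unshared TCRs. The left panel gives the percentage of TdLN rearrangements not found in tumor 1 that had a single template, from 97.6% for Trbj1-1 to 25% for Trbj2-7, and the others the share (%) of each J gene among members (circles) and unshared TCRs (squares) per mouse at equal TdLN and equal tumor 1 count, with black lines for the means. Trbj2-7 lies lower in members in 5 of 5 mice on both sides.

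V segments encode the first 2 loops of the receptor and the opening of the CDR3, and no V gene passed the adjusted test. The members used 23 V genes in 164 V-J pairs, led by Trbv5 with 55 members, Trbv19 with 50 and Trbv13-1 with 34. The most frequent pair, Trbv5 with Trbj2-7, had 19 members in 5 mice, with 811 templates in tumor 1 and 517 in the TdLN. After adjustment, 0 of 20 V genes differed on the tumor side and 0 of 19 on the TdLN side (0% of each, exact permutation tests), with 2 and 4 at an unadjusted p under 0.05. The largest differences were on the TdLN side and did not pass the adjusted test. Trbv19 and Trbv13-2 had the smallest possible exact permutation p there, 0.00794, as did Trbj2-7 and Trbj2-4. The V genes were adjusted over 19 tests and the J genes over 12, so the calls do not show that V genes differed less. Trbv19 (chr6:41178375-41179048) made up 13.1%, 13.3%, 9.76%, 14.3% and 12.2% of members against 8.54%, 7.97%, 8.37%, 6.01% and 5.54% of unshared TCRs, without overlap (means 12.5% ± 1.73 and 7.29% ± 1.41, SD over 5 mice; exact permutation p = 0.00794, 0.0754 after adjustment). Trbv13-2 (chr6:41121396-41121832) was lower in 5 of 5 mice, at 5.88% ± 2.36 against 10.1% ± 0.962 (SD, n = 5; adjusted exact permutation p = 0.0754). Trbv5 (chr6:41062332-41062803) averaged 11.0% ± 3.94 against 5.22% ± 0.552 and was higher in 4 of 5 mice (SD, n = 5; adjusted exact permutation p = 0.188). On the tumor side the same V genes were closer, at 12.3% against 10.5% for Trbv19, 5.80% against 8.35% for Trbv13-2 and 11.5% against 8.32% for Trbv5. Without rearrangements found in other mice, Trbv19 was at 14.8% against 7.48% on the TdLN side, at the same adjusted p of 0.0754 (exact permutation, n = 5). The difference of Trbv13-2 was then -4.31 percentage points on the TdLN side. That of Trbv5 went from 5.82 to 4.25 on the TdLN side and from 3.22 to 0.80 on the tumor side, where neither passed the adjusted test.

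**Figure D4:**
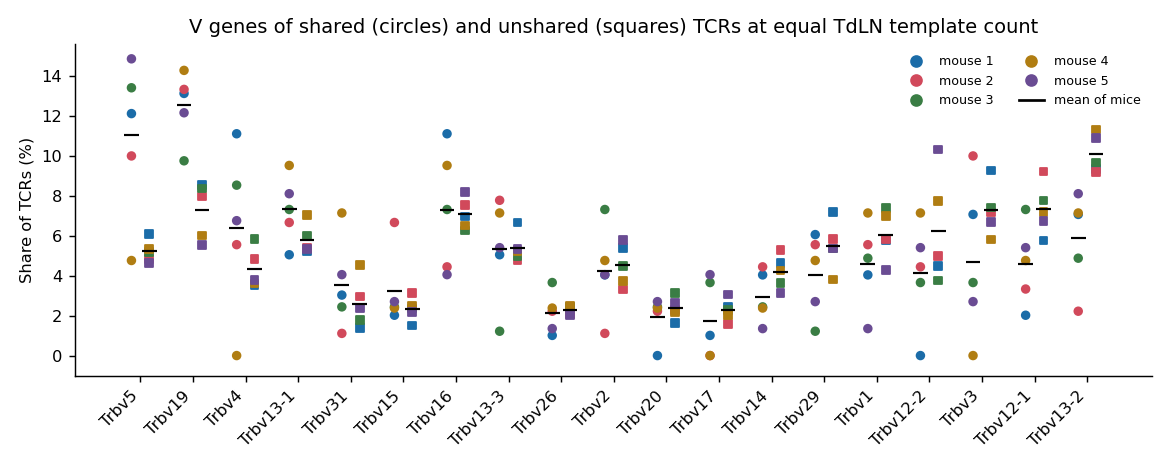
Share (%) of each V gene among members and among unshared TdLN TCRs of equal TdLN count, per mouse (n = 5), ordered by the difference of the means. Trbv5 and Trbv19 stand at one end, 5.82 and 5.25 percentage points higher in members, and Trbv13-2 at the other, 4.2 lower, and 0 of 19 genes passed the adjusted test.

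The CDR3s of members were of usual length. They ran from 7 to 18 residues, with 141 of the 427 at 14, 109 at 13 and 82 at 15. At equal count, 0 of 11 junction measures passed the adjusted test on either side (0% of each, exact permutation tests), with 5 at an unadjusted p under 0.05 on the tumor side and 0 on the TdLN side. Mean CDR3 length was 13.99 residues in members and 13.78 in unshared tumor TCRs, and 14 against 13.8 on the TdLN side. On the tumor side, the smallest unadjusted p was that of net charge. The net charge of the CDR3 without its first and last 4 residues was -0.52 against -0.30, lower in 5 of 5 mice (exact permutation p = 0.00794, 0.0873 after adjustment, n = 5). Members had 3.13, 3.92, 3.31, 3.0 and 3.65 N bases on average in mice 1 to 5, against 4.65, 4.11, 4.59, 4.19 and 3.66 in unshared tumor TCRs of equal count. The value was lower in 5 of 5 mice, although the values of mouse 5 were nearly equal (means 3.40 ± 0.380 and 4.24 ± 0.402, SD over 5 mice; exact permutation p = 0.0159, 0.0873 after adjustment). V trimming was 2.68 against 3.71 bases (adjusted exact permutation p = 0.105, n = 5). Against unshared TdLN TCRs, members had the same mean, 3.47 N bases in both (exact permutation p = 0.992, n = 5). Without rearrangements found in other mice, 0 of 11 junction measures had an unadjusted p under 0.05 on either side. Net charge on the tumor side was then -0.42 against -0.32, lower in 4 of 5 mice (exact permutation p = 0.159, n = 5). N bases were 3.59 against 4.28 there, lower in 4 of 5 mice (exact permutation p = 0.0714, n = 5). In mouse 5 they were 3.83 against 3.50. On the tumor side 14 members are small rearrangements that repeat the last 40 bases of one at least 50 times larger in their sample, and they were kept here.

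Presence in tumor 2, the later tumor on the opposite flank, was not used in the selection. Of the members, 66 of 112 in mouse 1 (58.9%, interval 49.7% to 67.6%) and 85 of 104 in mouse 2 (81.7%, 73.2% to 88.0%) were also found there. It was 3 of 90 in mouse 3 (3.33%, 1.14% to 9.35%), 9 of 42 in mouse 4 (21.4%, 11.7% to 35.9%) and 9 of 79 in mouse 5 (11.4%, 6.11% to 20.3%). The mice thus differed beyond the counting error of these intervals, which leave out the depth of tumor 2. It had 3975, 3364, 3855, 238 and 2068 productive templates in mice 1 to 5. These 172 members held 63.7%, 62.2%, 3.14%, 16.4% and 0.822% of the productive templates of tumor 2. The members found in tumor 2 were larger in tumor 1, with a median of 4.5, 8, 19, 155 and 63 templates against 1, 2, 3, 2 and 3 for the rest. Of the 10 largest rearrangements of tumor 1, 9, 10, 1, 4 and 4 were members that were also in tumor 2. In mouse 1 the order of counts in the tumors was close, with Spearman's rho of 0.820 over the 66 members found in both tumors, and in mouse 2 it was 0.810 over 85, as a description.

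At equal TdLN count, members were found in tumor 2 more often than TdLN TCRs that were absent from tumor 1. The shares were 54.5%, 78.9%, 2.44%, 21.4% and 9.46% in mice 1 to 5 against 1.75%, 1.04%, 0%, 0.0149% and 1.01%. The groups did not overlap. The means were 33.4% ± 32.4 and 0.764% ± 0.751 (SD, n = 5; exact permutation p = 0.00794, adjusted over 6 comparisons 0.0159). The difference was 44.4 percentage points in mice 1 to 3 and 14.9 in mice 4 and 5. With the mouse number as a block the adjusted p was 0.125 (exact sign-flip test, n = 5). Among rearrangements found in no other mouse it was 27.3% against 0.520%, higher in 5 of 5 mice (exact permutation p = 0.0159, adjusted p = 0.0952). That adjustment also ran over 6 comparisons, although those of presence in other mice could not differ in this setting. Within equal count and equal J gene the difference was 32.1 percentage points (adjusted exact permutation p = 0.0476). Of the members in tumor 2, 33 of 66 in mouse 1 and 51 of 85 in mouse 2 were also in samples of other mice.

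At equal tumor 1 count no such difference passed. This comparison leaves out many of the largest members, and the members found in tumor 2 were larger in tumor 1. Members were found in tumor 2 in 45.5%, 75.6%, 1.56%, 8.57% and 5.0% of cases against 29.6%, 33.9%, 4.90%, 11.8% and 0.952% for tumor 1 TCRs not found in the TdLN. The share was higher in 3 of 5 mice and the groups overlapped widely (27.2% ± 32.3 against 16.2% ± 14.7, SD, n = 5; adjusted exact permutation p = 0.492). The difference averaged 18.1 percentage points in mice 1 to 3 and 0.412 in mice 4 and 5.

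**Figure D5:**
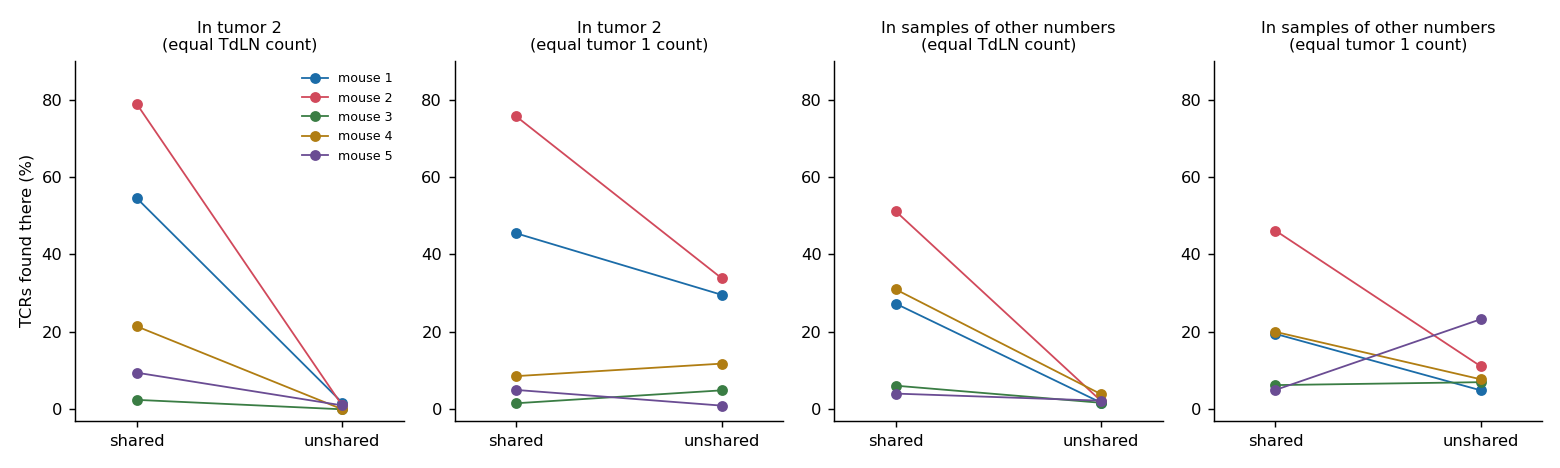
Percentage of members and of unshared TCRs of equal count that were found in tumor 2 of the same mouse or in samples of other mice, with 1 line per mouse, from the tumor 1 side and the TdLN side. On the TdLN side all 5 lines fall from members to unshared TCRs, from a mean of 33.4% to 0.764% for tumor 2, and on the tumor side they cross.

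Presence in the 12 samples of other mice behaved in the same way. At equal TdLN count it was 27.3%, 51.1%, 6.10%, 31% and 4.05% of members against 1.69%, 2.11%, 1.67%, 3.87% and 2.22% of unshared TCRs (means 23.9% ± 19.4 and 2.31% ± 0.906, SD over 5 mice; exact permutation p = 0.00794, 0.0159 after adjustment and 0.125 with the mouse block). At equal tumor 1 count it was 19.4% against 10.8% (adjusted exact permutation p = 0.492, n = 5). The mean difference on the TdLN side was 26.3 percentage points in mice 1 to 3 and 14.5 in mice 4 and 5, and a few pairs of samples carried most of it, as given above.

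Some CDR3s were made by several rearrangements. A partner with the same CDR3, V gene and J gene but other nucleotides was present in the TdLN or tumor 1 of the mouse for 19.7% ± 3.71 of members and 10.3% ± 3.20 of unshared TCRs of equal TdLN count, higher in 5 of 5 mice (SD over 5 mice; exact permutation p = 0.00794, 0.0159 after adjustment and 0.125 with the mouse block). Without rearrangements found in other mice it was 13.5% against 10.3%, higher in 3 of 5 (exact permutation p = 0.397, n = 5). Without the small rearrangements the difference was 3.52 percentage points (adjusted exact permutation p = 0.397). On the tumor side it was 14.9% against 19.0% (adjusted exact permutation p = 0.492, n = 5).

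The 427 members encoded 378 distinct CDR3s, of which 20 were carried by members of at least 2 mice and 5 by members of at least 3. The 3 of most mice and most templates were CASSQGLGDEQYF, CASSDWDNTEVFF and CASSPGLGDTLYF. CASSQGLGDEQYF (Trbv5, Trbj2-7) was carried by 4 members of mice 1, 3 and 5 through 3 nucleotide sequences, with 29 templates in tumor 1 and 44 in the TdLN. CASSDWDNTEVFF (Trbj1-1 with Trbv13-1 or Trbv16) was carried by 4 members of mice 1, 3 and 5 through 2 sequences, with 23 templates in tumor 1 and 21 in the TdLN. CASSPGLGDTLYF (Trbv5, Trbj2-4) was carried by 3 members of mice 1, 2 and 3. The sequences below show a CDR3 made without N bases, a nucleotide sequence that was a member in both mouse 1 and mouse 2, and a pair of rearrangements of different mice that differ by 1 residue of the CDR3. Capitals again mark the bases between the V and J parts.
Mouse 5, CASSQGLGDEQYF (Trbv5, Trbj2-7): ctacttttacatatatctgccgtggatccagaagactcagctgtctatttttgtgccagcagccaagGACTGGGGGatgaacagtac
Mouse 1, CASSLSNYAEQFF (Trbv3, Trbj2-1): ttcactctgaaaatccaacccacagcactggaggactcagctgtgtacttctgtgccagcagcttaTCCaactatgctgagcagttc
Mouse 2, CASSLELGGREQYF (Trbv16, Trbj2-7): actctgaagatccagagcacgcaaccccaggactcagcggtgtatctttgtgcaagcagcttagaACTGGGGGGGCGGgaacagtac
Mouse 4, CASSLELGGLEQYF (Trbv16, Trbj2-7): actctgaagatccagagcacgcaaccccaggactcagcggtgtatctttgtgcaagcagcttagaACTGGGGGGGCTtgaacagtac

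The rearrangement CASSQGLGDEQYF of mouse 5, whose V part lies at chr6:41062736-41062802 and J part at chr6:41543815-41543825, has 0 N bases, so its 9 capital bases are all assigned to the D segment. The same nucleotides were a member in mouse 1, with 2 templates in tumor 1 and 4 in the TdLN. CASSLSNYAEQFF of mouse 1 had 1035 tumor 1 templates, 106 TdLN templates and 422 of tumor 2. In mouse 2 the same nucleotides had 4, 3 and 88 templates in these tissues. It is 1 of the sequences that both mice share, so these 88 templates need not be a clone of mouse 2. The Trbv16 pair starts from the same V part, chr6:41152166-41152230, and the same stretch ACTGGGGGGGC. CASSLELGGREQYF of mouse 2 had 12 templates in tumor 1 and 37 in the TdLN, and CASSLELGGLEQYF of mouse 4 had 302 and 5. Within a mouse, 18 of 104 distinct member CDR3s of mouse 1, 15 of 101 of mouse 2 and 8 of 82 of mouse 3 had a member of the same mouse 1 residue away, against 0 of 41 in mouse 4 and 2 of 75 in mouse 5, given as a description.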

How the data were processed

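Genomic DNA of sorted CD8+ PD-1+ T cells was read by the immunoSEQ provider, and per the file headers the deposited values are template counts, whole numbers for each 87-base rearrangement, with V, D and J genes, segment positions and N insertions. They were used without normalization. Software version and cell number are not given in the sources used here, and the submitters' processing notes name mm10. Template counts are PCR-based estimates, so intervals cover counting error only, and a count of 0 allows up to 3 templates. Samples of the same number were taken as 1 mouse, as the paper describes paired samples. p-values measure the spread between the 5 mice, and the permutation test leaves out the pairing of members and unshared TCRs within a mouse. With the mouse as a block, the smallest adjusted p of V genes was 0.714 on the tumor side and 0.238 on the TdLN side. For junction measures it was 0.172 and 0.516 (exact sign-flip tests).

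A rearrangement was shared when its nucleotides were listed as productive in the TdLN and tumor 1 of a mouse. Within each mouse the unshared rearrangements were weighted to the exact template counts of the shared ones, and counts held by only 1 of the groups were left out. Mean shares per mouse were compared by two-sided exact permutation of 5 against 5 (252 regroupings), with Benjamini-Hochberg adjustment over the V or J genes whose mean share reached 1%, over 11 junction measures, or over 6 comparisons of presence and synonymous partners. TCRs named are the 3 largest members of each tissue in each mouse, of which some are described, and clones just outside the selection. V and J genes named are those past the threshold of 0.05 after adjustment or, where none was, the 3 of largest difference, and CDR3s named are the 3 carried by members of most mice, then by templates. Other TCRs and genes were named after their values were seen. The members and lists were chosen with earlier results of these data known. All 48 V and J names matched symbols of GENCODE M21 (GRCm38). The weighting and test were checked on simulated data in which J genes were exchanged within classes of template count. That check cannot tell whether equal template count stands for equal clone size across J genes. Alternatives were doubling strata of count, no weighting, removal of rearrangements found in other mice or of small ones, other gene filters, each mouse left out, the sample name styles, and the mouse as a block. Python 3.11.15 with numpy 2.4.6, pandas 2.3.3 and matplotlib 3.10.9 was used.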

Additional observations from a re-analysis of the deposited data

Results flagged for a closer look

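Of 53 groups of 5 mouse values, 3 held a value far from the other 4, where chance gives about 1 in 20. Trbv19 made up 6.25% of the members of mouse 3 at equal tumor 1 count, below every other mouse. A synonymous partner was present for 32.7% of the unshared tumor 1 TCRs of mouse 1. Of the unshared TdLN TCRs of mouse 4, 3.87% were found in samples of other mice. No cause was tested for these values.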

How the results depend on the processing

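In all, 352 values were recomputed under an alternative. For the main comparisons, 125 values kept their direction and their side of the threshold or moved little, and 27 moved. Most of those that moved were numbers of J gene calls that fell, mostly to 0. A further 22 values, of presence or synonymous partners, lost the call. On the tumor side 0 J genes instead of 2 passed with doubling strata of count, no weighting, small rearrangements removed, all genes with at least 1 TCR, the sign-flip test with the mouse number as a replicate block, out-of-frame rearrangements, Trbj2-7 TCRs left out, and 1 template only. On the TdLN side 0 instead of 4 passed with no weighting, all genes with at least 1 TCR, the sign-flip test with the block, out-of-frame rearrangements and 1 template only, and 2 without rearrangements found in other mice. Trbj2-3 on the TdLN side turned to -0.61 percentage points without weighting. Among out-of-frame rearrangements Trbj2-7 turned to 2.90 and 7.74 on the tumor and TdLN sides and Trbj1-1 to -1.73 on the TdLN side, and with 1 template only Trbj2-7 turned to 3.13 on the TdLN side. The cause was not tested. Of the junction measures, 2 passed on the tumor side with doubling strata (charge and V trimming) and 2 without weighting (N1 bases and V trimming). No V gene passed under any alternative run on all 5 mice.

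On the TdLN side the excess of members in tumor 2 was 26.8 percentage points without rearrangements found in other mice and no longer passed. The excess in synonymous partners was 3.26 without these, 3.52 without small rearrangements and 7.46 within equal count and J gene, none of which passed. With the block the pairing left the values of tumor 2, other mice and synonymous partners at 32.6, 21.6 and 9.38 percentage points, with adjusted p of 0.125 each, as 5 mice cannot go below 0.0625 (exact sign-flip test).

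Leaving out 1 mouse at a time gave 0 to 0 J gene calls on both sides. On the TdLN side it gave 21.3 to 40.1 percentage points for tumor 2, 14.7 to 26.5 for other mice and 8.35 to 10.1 for synonymous partners, with adjusted p of 0.0571 each (exact permutation of 4 against 4). On the tumor side it gave 3.34 to 14.6, 1.95 to 15.3 and -6.63 to -2.19. There were 315 to 385 members, the mean log2 ratio was 0.23 to 0.99 and the mean rho 0.471 to 0.560. With at least 2 templates in both tissues there were 240 members. Template depth limits what was found, since 142 members rest on 1 TdLN template and 108 on 1 tumor 1 template.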
